A study of Mus musculus with 6 samples.

Results

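The transcripts described here are those of the ISG15 conjugation pathway, chosen by symbol as the modifier Isg15, its activating enzyme Uba7, its conjugating enzyme Ube2l6, its ligase Herc6 and its deconjugating enzyme Usp18. These were 5 of the 23608 genes in the count table, and all 5 were among the 11614 genes expressed highly enough to be tested. They were measured by bulk RNA sequencing in 6 libraries of mouse acute myeloid leukaemia cells, 3 from recipients injected with oil and 3 from recipients injected with tamoxifen. The oncogene was AE9a, a shortened splice form of the AML1-ETO fusion protein, delivered to fetal liver cells by a retrovirus that also encodes GFP. Cells of both groups carried 1 floxed and 1 intact copy of Usp18 and the UBCER-Cre transgene, in which the ubiquitin C promoter drives a Cre recombinase that tamoxifen activates in all cell types. The oil group therefore stayed Usp18+/f, and the tamoxifen group is labelled Usp18+/D, for the recombined copy. The recipients were sick C57BL/6 mice, and GFP+ Lin- c-Kit+ cells were sorted from their spleens 3 days after the first injection. Only one group received tamoxifen, so exposure to the drug, Cre activity and loss of the Usp18 copy cannot be told apart.

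ISG15 is a ubiquitin-like protein whose gene is strongly induced by interferon. UBA7 activates it, UBE2L6 carries it, and HERC6, the main ligase for it in mouse cells, attaches it to target proteins. USP18 removes it again. Separately from that activity, USP18 binds the interferon receptor chain IFNAR2 together with STAT2 and damps type I interferon signalling, and Usp18 is itself an interferon-stimulated gene.

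The question put to these genes was how the pathway's transcripts stood in leukaemia cells 3 days after Usp18 was targeted. Usp18 and Isg15 had about 2.00 and 1.97 times the level of the oil group in the tamoxifen group, whereas Uba7, Ube2l6 and Herc6 differed by factors of 1.03 to 1.19. With edgeR's quasi-likelihood test, adjusted by the Benjamini-Hochberg method over all tested genes, 0 of the 5 members passed an adjusted p of 0.05. The same test called 234 genes, 2.01% of those tested, with 203 higher (1.75%) and 31 lower in the tamoxifen group. At an unadjusted p under 0.05, 2 of the 5 members were higher, Usp18 and Isg15, beside 12.6% of all tested genes. The DESeq2 Wald test, the study's tool, called those 2 members, beside 6.14% of the genes it tested.

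The regulatory sequence of these genes was read first, because interferon acts on them through short promoter elements. Windows of 300 bases, from 250 before to 50 after the annotated start, were taken from RefSeq on GRCm38.p6 for the 4 members that matched by symbol, Isg15, Uba7, Ube2l6 and Herc6. Both strands were searched for the interferon-stimulated response element, taken as GAAA, any 2 bases and GAAA, and for the gamma-activated site, TTCNNNGAA. The Isg15 window held 3 overlapping matches to the first motif, GAAAAGGAAA, GAAACCGAAA and GAAACAGAAA, that together ran from 78 to 57 bases before the start. They are in capitals in the sequence of chr4:156200769-156201068, which is printed 5′ to 3′ along the gene's own (minus) strand.
Isg15: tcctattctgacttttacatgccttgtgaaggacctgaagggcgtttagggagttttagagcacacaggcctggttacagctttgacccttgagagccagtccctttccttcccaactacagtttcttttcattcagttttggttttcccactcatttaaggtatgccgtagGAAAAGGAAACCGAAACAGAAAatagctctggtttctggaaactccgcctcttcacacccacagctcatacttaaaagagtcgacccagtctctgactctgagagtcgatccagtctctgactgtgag

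The windows of the 3 conjugation enzymes held neither motif on either strand, which says only that these letters do not occur there. They are shown for comparison with Isg15, each 5′ to 3′ on the plus strand, and hold no capitals. The Uba7 window is chr9:107975317-107975616, that of Ube2l6 is chr2:84798578-84798877 and that of Herc6 is chr6:57580742-57581041.
Uba7: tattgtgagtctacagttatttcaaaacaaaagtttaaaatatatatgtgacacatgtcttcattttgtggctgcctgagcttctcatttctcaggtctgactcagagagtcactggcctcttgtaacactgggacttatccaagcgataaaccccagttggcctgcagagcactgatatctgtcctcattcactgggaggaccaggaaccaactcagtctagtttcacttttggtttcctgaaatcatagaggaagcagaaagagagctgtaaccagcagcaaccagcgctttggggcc
Ube2l6: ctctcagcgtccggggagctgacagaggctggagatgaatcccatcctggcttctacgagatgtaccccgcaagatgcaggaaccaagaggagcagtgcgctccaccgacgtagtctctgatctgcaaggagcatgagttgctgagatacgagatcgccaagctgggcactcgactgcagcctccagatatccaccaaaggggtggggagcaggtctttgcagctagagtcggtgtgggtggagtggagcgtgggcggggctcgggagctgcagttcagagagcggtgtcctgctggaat
Herc6: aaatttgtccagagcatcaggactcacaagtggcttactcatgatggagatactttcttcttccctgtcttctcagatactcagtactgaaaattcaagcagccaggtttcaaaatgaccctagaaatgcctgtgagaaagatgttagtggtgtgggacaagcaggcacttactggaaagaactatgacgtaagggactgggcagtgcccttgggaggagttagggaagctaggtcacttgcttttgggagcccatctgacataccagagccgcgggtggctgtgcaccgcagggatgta

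The response element letters occurred in 1131 of 32851 promoter windows of the same length (3.44%), and the gamma-activated site letters in 2726 (8.3%). Among the other interferon-stimulated genes compared below, 16 had a window, of which 8 held the response element letters and 3 the gamma-activated site letters.

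Usp18 is the gene that tamoxifen was given to delete, and its transcript was not lower in the tamoxifen group. Levels are given in CPM, a gene's counts scaled to a common library total. Usp18 was at 9.12, 11 and 11.2 CPM in the libraries oil 1, 3 and 4, and 15.1, 28.0 and 19.4 CPM in tamoxifen 1, 2 and 4. All 3 tamoxifen libraries lay above all 3 oil libraries, as they did for 13.3% of tested genes, and tamoxifen 2 was the highest. The means were 10.4 ± 1.13 CPM in oil and 20.9 ± 6.57 CPM in tamoxifen (SD, n = 3 each). On the log2 scale tamoxifen exceeded oil by 1.0 ± 0.23 (SE; 95% interval 0.47 to 1.52; adjusted p = 0.0739). These CPM rest on 162 to 226 counts in oil and 275.5 to 474.5 in tamoxifen. In bulk samples a change in the share of cells that carry a transcript cannot be told apart from a change in its amount per cell.

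This check of the labels is limited. The exons that Cre removes were not given in the sources used here, and counts per gene pool the reads of the intact, floxed and recombined copies. The call depended on the tool and on 1 library. DESeq2 gave an adjusted p of 0.00199, and edgeR without tamoxifen 4 gave 0.00654 (log2 fold change 1.04), in a fit that called 19.2% of all genes higher. Without the low-count filter edgeR gave 0.0395, beside 2.42% of genes called higher.

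**Figure D1:**
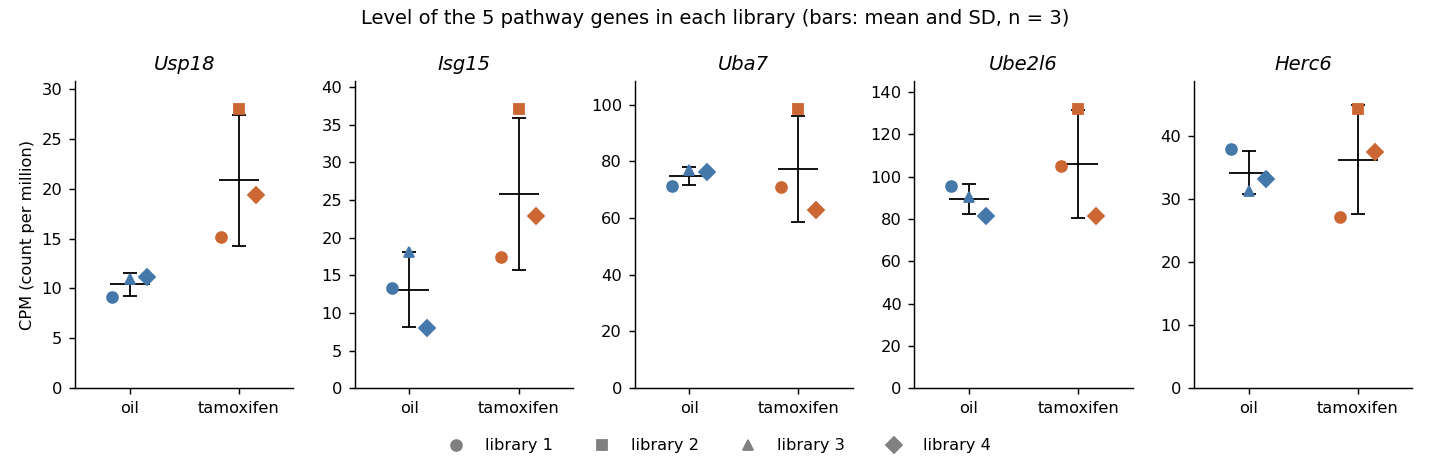
Level of each of the 5 members in CPM (vertical axes from 0, one panel per gene) in the oil and tamoxifen groups; points are single libraries with a marker shape for each number, and the bars give the mean and SD of 3 libraries. Usp18 sits between 9.12 and 11.2 CPM in oil and between 15.1 and 28.0 CPM in tamoxifen, while the groups of the other 4 genes overlap, and tamoxifen 2 is the highest library in every panel.

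Isg15, the modifier itself, had 13.3, 18.0 and 7.97 CPM in the oil libraries and 17.4, 37.1 and 22.9 CPM in tamoxifen. The groups overlapped, because tamoxifen 1 lay below oil 3, and the spread within oil was wider than for any other member relative to its mean. The means were 13.1 ± 5.03 and 25.8 ± 10.1 CPM (SD, n = 3 each), and the log2 difference was 0.98 ± 0.35 (SE; 95% interval 0.18 to 1.77; adjusted p = 0.188). The DESeq2 Wald test placed it just past the threshold (adjusted p = 0.0494), as did edgeR without tamoxifen 4 (log2 fold change 1.05, adjusted p = 0.0350). These 2 fits called 6.14% and 19.2% of all genes higher. Without tamoxifen 2 the log2 fold change of Isg15 was 0.62 and that of Usp18 0.73.

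The activating enzyme Uba7 was close to level between the groups. It had 71.3, 77.0 and 76.3 CPM in the oil libraries and 70.9, 98.5 and 62.8 CPM in the tamoxifen libraries. The tamoxifen libraries enclosed the oil libraries, with tamoxifen 2 above them and tamoxifen 1 and 4 below. The log2 fold change was 0.047 ± 0.16 (SE; adjusted p = 0.877), and its 95% interval of -0.32 to 0.41 leaves room for a fold between 0.801 and 1.33. Its direction rested on tamoxifen 2, since the log2 fold change was -0.16 without that library.

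The conjugating enzyme Ube2l6 had the highest CPM of the members. It stood at 95.6, 90.5 and 81.6 CPM in oil and at 105, 132 and 81.2 CPM in tamoxifen. Tamoxifen 1 and 2 lay above every oil library and tamoxifen 4 below every one of them. The log2 fold change was 0.25 ± 0.17 (SE; 95% interval -0.14 to 0.63; adjusted p = 0.409). Without tamoxifen 4 it was 0.41, past the threshold at an adjusted p of 0.0147, in a fit that called 19.2% of all genes higher. Without tamoxifen 2 it was 0.062.

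The ligase Herc6 also overlapped between the groups, at 37.9, 31.3 and 33.2 CPM in oil and 27.1, 44.3 and 37.4 CPM in tamoxifen. The tamoxifen group held both the lowest and the highest of the 6 values. The log2 fold change was 0.086 ± 0.18 (SE; 95% interval -0.32 to 0.50; adjusted p = 0.797), and it was -0.082 without tamoxifen 2.

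**Figure D2:**
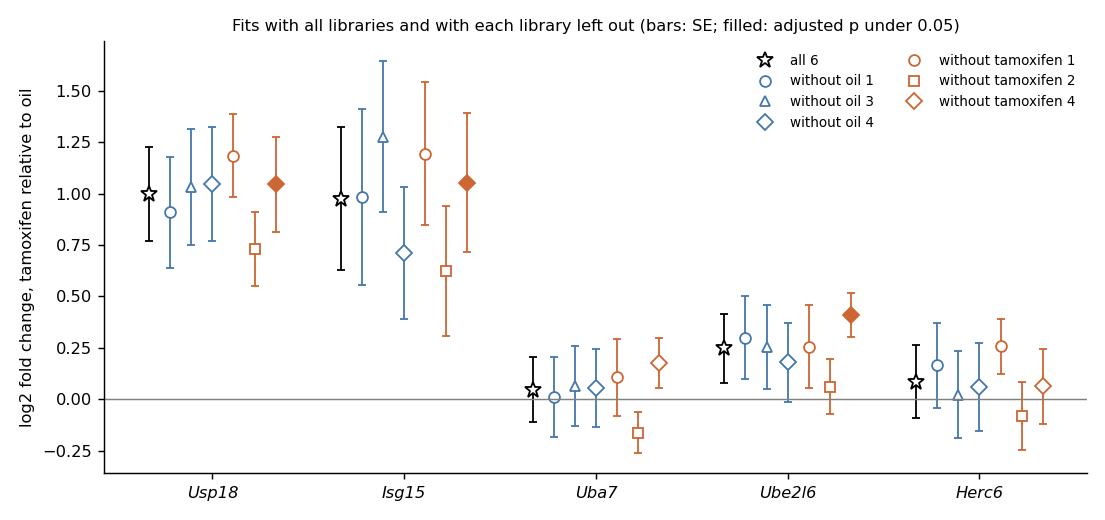
Log2 fold change of each member, tamoxifen over oil (vertical axis), from the fit on all 6 libraries (star) and from the fits that leave out 1 library each; bars are SE, and filled points have an adjusted p under 0.05. Usp18 stays between 0.73 and 1.18 and Isg15 between 0.62 and 1.28, while Uba7 and Herc6 fall below 0 when tamoxifen 2 is left out.

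Levels can be compared between genes only per length of transcript, taken here as the union of annotated exons. This union was 2790 bases for Usp18 (4 annotated transcripts), 9292 for Herc6 (6) and 6692 for Uba7 (15). It can exceed the length of the transcripts expressed, which was not measured, so the order below depends on it. In CPM not divided by length, Herc6 was above Usp18 in every library. In oil the order of mean level was Ube2l6 at 44.7 ± 3.57 CPM per kb, Isg15 at 17.3 ± 6.65, Uba7 at 11.2 ± 0.461, Usp18 at 3.73 ± 0.407 and Herc6 at 3.68 ± 0.366 (SD, n = 3). The ranges of Isg15 and Uba7 overlapped, as did those of Usp18 and Herc6. In tamoxifen the order was the same, with means of 53.1 ± 12.7 for Ube2l6, 34.1 ± 13.4 for Isg15, 11.6 ± 2.79 for Uba7, 7.47 ± 2.35 for Usp18 and 3.90 ± 0.928 CPM per kb for Herc6. There the ranges of Ube2l6 and Isg15 overlapped, and so did those of Uba7 and Usp18, while every value of Usp18 (at least 5.42 CPM per kb) was above every value of Herc6 (2.92 to 4.77).

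Ratios of counts within a library do not depend on how libraries are scaled. The Usp18 to Isg15 ratio was 0.686, 0.608 and 1.40 in oil and 0.868, 0.756 and 0.849 in tamoxifen. The tamoxifen values lay inside the oil range, and the mean log2 ratio differed by -0.024 (two-sided exact permutation test, p = 1). Without oil 4 the difference was 0.35. With 3 libraries against 3, this test cannot give a p below 0.1.

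Against each of the 3 conjugation enzymes, Usp18 took a larger ratio in every tamoxifen library than in any oil library. These 3 ratios were added after the values had been seen. All 3 have Usp18 as numerator, whose own levels did not overlap between the groups, so they are not independent results. The share of all genes whose ratios separate in this way is not given here. The ratio to Herc6 was 0.240, 0.350 and 0.337 in oil and 0.557, 0.633 and 0.520 in tamoxifen, a mean log2 difference of 0.90 that stayed between 0.73 and 1.0 when any 1 library was left out. The ratio to Uba7 was 0.128, 0.142 and 0.147 in oil and 0.213, 0.285 and 0.309 in tamoxifen, a difference of 0.94. The ratio to Ube2l6 differed by 0.74, from 0.0953 to 0.137 in oil and from 0.144 to 0.239 in tamoxifen. Each of the 3 had an exact p of 0.1, the smallest the design allows, and of 0.133 after adjustment over the 4 ratios.

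**Figure D3:**
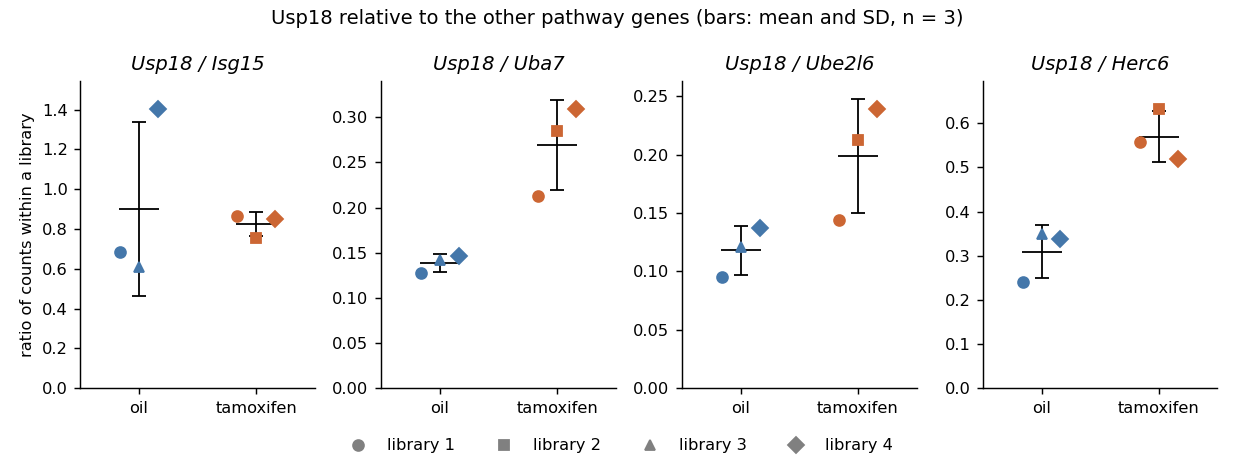
Ratio of Usp18 counts to the counts of Isg15, Uba7, Ube2l6 and Herc6 within each library, by group; points are single libraries, and bars give the mean and SD of 3 libraries. The ratio to Isg15 overlaps between oil and tamoxifen, and the ratios to the 3 enzymes do not, for example 0.240 to 0.350 in oil against 0.520 to 0.633 in tamoxifen for Herc6.

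Across the 6 libraries, log2 CPM of Usp18 and Isg15 had a Pearson correlation of 0.83 (Spearman 0.71), and that of Uba7 and Ube2l6 one of 0.78 (Spearman 0.49). The other 8 pairs of members had Pearson values between 0.36 and 0.68 and lower Spearman values, between 0.029 and 0.37. Tamoxifen 2 was the highest library for every member, which enters each of these values. These values are descriptions over libraries that share group and preparation, and they include the difference between the groups.

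The genes whose pattern over the 6 libraries was most like that of Usp18 were Oasl1 (r = 0.996), Tgtp2 (0.993), 0610010F05Rik (0.993), Mfsd5 (0.991) and Gzmb (0.991). Oasl1 averaged 32.8 ± 3.35 CPM in oil and 53.8 ± 13.6 CPM in tamoxifen (SD, n = 3). Tgtp2, an interferon-inducible GTPase whose reads can be shared with its near-identical copy Tgtp1, averaged 34.0 ± 2.27 and 72.0 ± 25.6 CPM. These genes were picked for a pattern that includes the difference between the groups, so no test of that difference is given for them. Gzmb, which encodes granzyme B, had 0, 1 and 1 counts in oil and 14.5, 98 and 24 in tamoxifen. It passed the low-count filter only through the tamoxifen libraries, and with a prior count of 0.5 in place of 2 Trim30a (r = 0.989) took its place among the 5. The genes nearest to Isg15 were different ones, Ptrhd1 (r = 0.998), Mc1r (0.993), Cyp4f17 (0.982), Foxa1 (0.981) and Arhgap12 (0.979). Cyp4f17 held 8 to 33 counts in oil and 30.5 to 57.5 in tamoxifen, and Mc1r 12 to 20 and 18 to 23, so 2 of these patterns rest on few reads.

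Of 8 genes listed for links to USP18 or interferon receptor signalling, 6 had a positive log2 fold change and 0 passed the adjusted test. Their median log2 fold change was 0.16 beside 0.00 over all tested genes. Not all of the 8 are partners of USP18 at the receptor itself. Stat2 and Irf9 act in the transcription factor complex that type I interferon activates. Both were higher at an unadjusted p under 0.05, as were 12.6% of all tested genes. Stat2, which tethers USP18 to the receptor, was at 38.6, 38.0 and 39.5 CPM in oil and at 44.9, 64.5 and 44.3 CPM in tamoxifen (log2 fold change 0.40 ± 0.15 SE, adjusted p = 0.204). Irf9, the DNA-binding subunit, was at 78.3, 86.4 and 81.5 CPM in oil and at 92.0, 131 and 97.0 CPM in tamoxifen (0.38 ± 0.14, adjusted p = 0.200). For both genes, 2 of the 8, every tamoxifen library lay above every oil library, as it did for 13.3% of all tested genes. The receptor chains differed little, with log2 fold changes of 0.052 for Ifnar1 and -0.13 for Ifnar2, and the receptor's kinases stood at 0.11 for Jak1 and 0.20 for Tyk2.

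Other enzymes linked to ISG15, further ligases and conjugating enzymes and proteases that react with it, had values on both sides of 0. Of 10 listed, 8 were tested, 4 had a positive value, 0 passed the adjusted test, and the median log2 fold change was -0.010. Usp21, a protease that acts on ubiquitin and ISG15, was at 40.8, 38.3 and 48.2 CPM in oil and at 28.0, 28.4 and 34.7 CPM in tamoxifen. Every tamoxifen library was below every oil library (log2 fold change -0.48 ± 0.13 SE, adjusted p = 0.109). The share of all tested genes with such a downward pattern is not given here. Trim25 is a ligase that can itself be modified by ISG15. It was at 144, 154 and 140 CPM in oil and at 168, 166 and 169 CPM in tamoxifen (0.20 ± 0.08, adjusted p = 0.213). Its tamoxifen libraries all lay above its oil libraries, as they did for 13.3% of all tested genes. The third largest change was that of Usp14, at -0.15 (adjusted p = 0.422). The 9 closest relatives of the member enzymes, which work with ubiquitin and other modifiers, had a median of -0.17, with 8 of 9 negative and 0 called. The largest of these were Herc3 at 0.59 (adjusted p = 0.333), Herc2 at -0.29 (adjusted p = 0.163) and Uba6 at -0.29 (adjusted p = 0.275).

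Among 9 proteins reported as ISG15 targets or as its cell surface receptor, 6 had a positive value, and the median log2 fold change was 0.042. Of the 9, 1 passed the test, beside 2.01% of all tested genes. That gene, Itgal, encodes the integrin chain of LFA-1 to which extracellular ISG15 binds. It was at 46.5, 51.4 and 51.0 CPM in oil and rose to 134, 185 and 76.9 CPM in tamoxifen (log2 fold change 1.41 ± 0.27 SE, adjusted p = 0.0451). Its partner chain Itgb2 was at 50.7, 48.6 and 50.8 CPM in oil and at 61.2, 94.9 and 43.8 CPM in tamoxifen (0.41 ± 0.24, adjusted p = 0.351). Ddx58 encodes the RNA sensor RIG-I. It was at 32.9, 33.7 and 32.2 CPM in oil and at 50.4, 72.4 and 47.1 CPM in tamoxifen (0.78 ± 0.16, adjusted p = 0.0557). Ddx58 and Itgal, 2 of the 9, had every tamoxifen library above every oil library, beside 13.3% of all tested genes. The call of Itgal was lost when any library other than tamoxifen 4 was left out, with adjusted p between 0.0964 and 0.223.

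**Figure D4:**
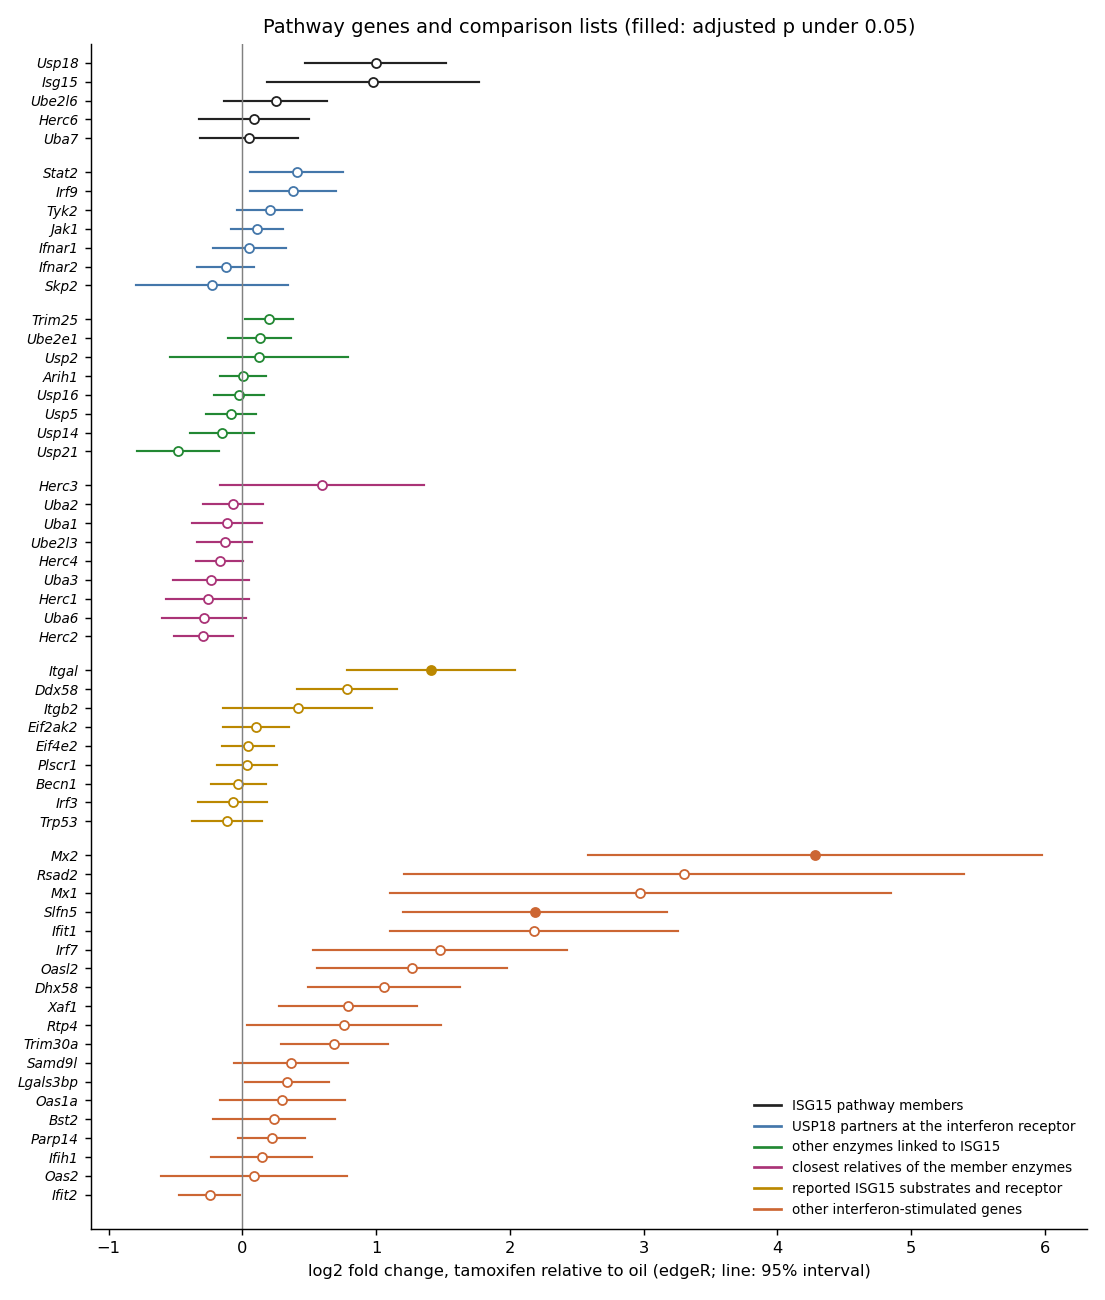
Log2 fold change, tamoxifen over oil (horizontal axis), of tested genes of the pathway and comparison lists, coloured by list; lines are 95% intervals, and filled points have an adjusted p under 0.05. The members' median is 0.25, that of the other interferon-stimulated genes 0.76 and that of the relatives of the member enzymes -0.17.

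The members were set beside 23 other interferon-stimulated genes, of which 19 were tested. This list was chosen with earlier results of these data known. Of these 19, 18 had a positive log2 fold change, as did 5809 of all 11614 tested genes, and the median was 0.76. The adjusted test was passed by 2 of the 19, beside 2.01% of all tested genes. At an unadjusted p under 0.05, 12 of the 19 were higher, beside 12.6% of all tested genes. At the same threshold 1 of the 19 was lower, beside 928 of the 11614. The called genes were Mx2 and Slfn5, an antiviral GTPase and a Schlafen family gene. Mx2 was barely detected in oil, with 0, 4 and 2 counts, and had 22, 58.5 and 32.5 counts in tamoxifen (adjusted p = 0.0399). Mx2, like Rsad2 and Mx1 below, passed the low-count filter only through the tamoxifen libraries, so these 3 of the 19 genes had to be higher there, and at a mean of at least 50 counts Mx2 was not tested. Slfn5 rose from 2.48, 3.30 and 1.90 CPM to 9.27, 19.4 and 6.41 CPM (log2 fold change 2.19 ± 0.43 SE, adjusted p = 0.0470). Both calls were lost when any library other than tamoxifen 4 was left out.

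The 3 genes with the next largest values on this list were Rsad2, Mx1 and Ifit1. Rsad2, the antiviral protein viperin, had a log2 fold change of 3.30 ± 0.91 (SE; adjusted p = 0.109), with 0.5 to 10 counts in oil and 18 to 57.5 in tamoxifen. Mx1 had 2.98 ± 0.81 (adjusted p = 0.108), with 4 to 10.5 counts in oil and 18.5 to 91.5 in tamoxifen. Ifit1 was at 2.08, 5.38 and 2.21 CPM in oil and at 9.52, 23.6 and 11.2 CPM in tamoxifen (2.18 ± 0.47, adjusted p = 0.0609). The exception in direction was Ifit2, at 44.9 to 50.9 CPM in oil and 37.4 to 43.1 CPM in tamoxifen (log2 fold change -0.24). Usp18 and Isg15, at 1.0 and 0.98, therefore stood above the median of this list, and Uba7, Ube2l6 and Herc6 below it.

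The libraries can also be read one at a time, as the median shift in log2 CPM from the oil mean. For the 19 other interferon-stimulated genes this shift was -0.10, 0.21 and -0.092 over the oil libraries (1, 3, 4), against 0.38, 1.22 and 0.53 over the tamoxifen libraries (1, 2, 4). Usp18 shifted by 0.54, 1.42 and 0.90 in the 3 tamoxifen libraries, in the same order as this median, and by -0.19, 0.076 and 0.11 in the oil libraries, where oil 4 and not oil 3 was its highest. Isg15 shifted by 0.49, 1.57 and 0.88 there, and by 0.10, 0.53 and -0.63 in the oil libraries, so oil 3 was the highest oil library for both Isg15 and the list. Ube2l6 shifted by 0.23, 0.57 and -0.13, Uba7 by -0.078, 0.40 and -0.25, and Herc6 by -0.33, 0.38 and 0.13 in the tamoxifen libraries. Herc6 thus had the order of the list median too, with a log2 fold change of only 0.086. The share of all genes with this order is not given here.

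**Figure D5:**
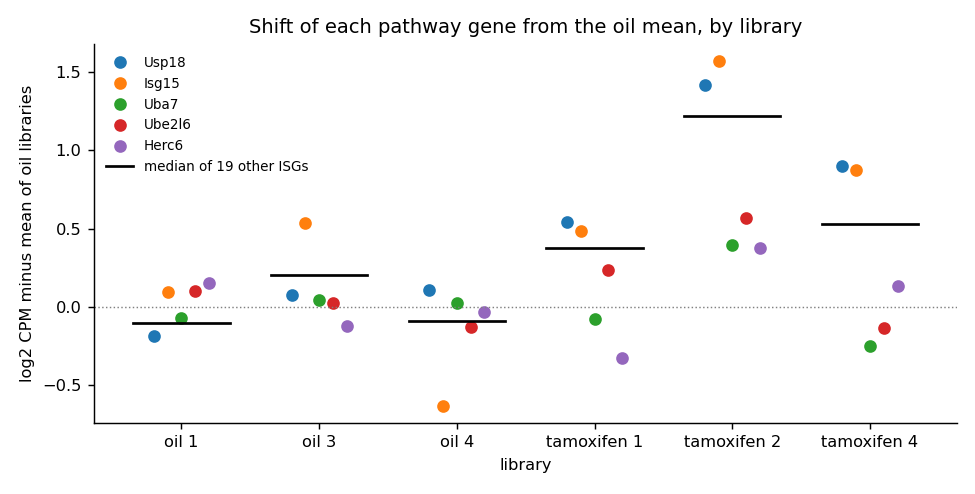
Shift of log2 CPM from the mean of the oil libraries (vertical axis) in each of the 6 libraries, for the members (points) and for the median of 19 other interferon-stimulated genes (black lines). The list median is 1.22 in tamoxifen 2, 0.53 in tamoxifen 4 and 0.38 in tamoxifen 1. Usp18, Isg15 and Herc6 share this order, and Uba7 and Ube2l6 do not.

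Transcripts of the ligands were near the limit of detection. Of 7 interferon genes, 5 were at 0 in all 6 libraries, Ifng had 2 counts in oil 1 and Ifne 2 counts in oil 3. A count of 0 allows up to 3 counts, or 0.145 to 0.177 CPM in these libraries, and covers counting error only. These are the sorted cells alone, and interferon made by other cells was not measured.

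The sorted cells carried the progenitor markers Kit (439 to 782 CPM), Gata2 (457 to 652 CPM) and Myb (378 to 439 CPM), while Flt3 was at 0 and Mpo at or below 0.207 CPM in every library. Cd34 rose from 8.41 to 11.7 CPM in oil to 41.8 to 134 CPM in tamoxifen (adjusted p = 0.0232). Of 10 macrophage markers 8 were tested, 6 with a positive log2 fold change and 2, C1qb and C1qc, with a negative one. Of the 8, 1 was called higher, Hmox1, beside 1.75% of all tested genes. The list summed to 5.57 to 9.88 CPM in oil and 9.86 to 24.5 CPM in tamoxifen, with Adgre1 at or below 0.590 CPM. Of 8 T and NK cell markers 5 were at 0 throughout (Cd3e, Cd8a, Ncr1, Prf1 and Gzma). The sum of 1.13 to 2.57 CPM in oil and 7.65 to 56.4 CPM in tamoxifen was nearly all Nkg7. That gene, the only 1 of the 8 tested, was called higher (adjusted p = 0.0410), beside 1.75% of all tested genes. Neutrophil markers summed to at most 0.590 CPM with Ly6g and S100a8 at 0, and B cell markers to at most 0.878 CPM with Ms4a1 and Pax5 at 0. Plasmacytoid dendritic cell markers summed to 113 to 132 CPM in oil and 107 to 141 CPM in tamoxifen, with 0 called, Siglech at 0 and Bst2 counted among the interferon-stimulated genes too. The 8 erythroid markers summed to 4131 to 6269 CPM in oil and 3338 to 7512 CPM in tamoxifen. The part of these differences in the values of Usp18 and Isg15 was not tested. On the first principal component of all tested genes (65.1% of the variance), tamoxifen 4 at -2.99 lay between the oil libraries (-31.1 to -23.4) and the other tamoxifen libraries (37.3 and 47.5).

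The positions of the members bear on what their counts include. In GENCODE M21 on GRCm38, Usp18 spans chr6:121245906-121270917 on the plus strand and is overlapped over 15715 bases by the antisense non-coding gene Gm44148. Uba7 (chr9:107975505-107984060, plus strand) shares 1003 bases with Gm20661, and Herc6 (chr6:57581000-57664632, plus strand) shares 45031 bases with Gm45193 and 253 with the antisense Gm19244. None of these 4 overlapping genes had a row under its symbol, and the strand setting of the counting was not given in the sources used here, so their reads cannot be told apart from those of the members. Isg15 (chr4:156199424-156200818, minus strand) and Ube2l6 (chr2:84798828-84810335, plus strand) overlapped no annotated gene.

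The genes on either side of Usp18 also had higher values in tamoxifen without passing the test. Tuba8, an alpha-tubulin gene 19052 bases to the left, was at 9.51, 6.11 and 12.8 CPM in oil and at 15.7, 17.8 and 17.3 CPM in tamoxifen (log2 fold change 0.84 ± 0.25 SE, adjusted p = 0.134). Slc6a13, a GABA transporter gene 29310 bases to the right, was at 2.17, 3.44 and 2.62 CPM in oil and at 8.37, 11.4 and 4.48 CPM in tamoxifen (1.55 ± 0.36, adjusted p = 0.0763). For both genes every tamoxifen library lay above every oil library, beside 13.3% of all tested genes with that pattern. Beside Isg15, the agrin gene Agrn lay 1936 bases away. It was at 73.3, 56.1 and 62.4 CPM in oil and at 39.9, 50.7 and 55.2 CPM in tamoxifen (-0.39, adjusted p = 0.204). Every tamoxifen value was below every oil value, and the share of all tested genes with that pattern is not given here. AW011738, on the other side of Isg15, stood at -0.22 (adjusted p = 0.529). Beside the other members, Traip next to Uba7 stood at -0.18 (adjusted p = 0.644) and Pyurf next to Herc6 at 0.17 (adjusted p = 0.397), while Serping1 next to Ube2l6 was at 0 in every library. Neighbours with few reads were not tested, Smtnl1 beside Ube2l6 at or below 0.654 CPM and Ppm1k beside Herc6 with 4 to 5.5 counts in oil and 8 to 26 in tamoxifen.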

How the data were processed

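The 6 RNA-seq libraries were analysed, 3 per group. The deposited values are estimated counts per gene symbol, unscaled, all multiples of 0.5; per the labels and methods, the authors used Trizol, paired-end sequencing, STAR, DESeq2 and mm10. The counting program, strand and annotation were not given in the sources used here. Library totals were 17118964 to 20741399 counts. Groups came from the labels. The sample titles use the numbers 1, 2, 4 (oil) and 1, 3, 4 (tamoxifen), and the columns of the count file 1, 3, 4 and 1, 2, 4, which are kept here; oil 3 and tamoxifen 2 are known by group only.

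Counts were rounded and tested in R 4.3.3 with edgeR 4.0.16 (filterByExpr, TMM, quasi-likelihood F test, Benjamini-Hochberg over 11614 genes, threshold 0.05). CPM used TMM-scaled totals; log2 CPM used a prior count of 2. SE came from the F statistic. P-values measure the spread between these samples, which the labels call biological replicates. The scripts were tested on simulated data. Named are the members, per list the called genes and up to 3 with the largest changes, the nearest neighbours, and 5 genes most like Usp18 and Isg15; Ifnar1, Ifnar2, Jak1, Tyk2 and Ifit2 were named after their values were seen. Some genes that this rule would name are not reported here. Members and lists were chosen with earlier results of these data known. Alternatives were DESeq2 1.42.0, limma-voom (limma 3.58.1), other normalizations and filters, unrounded counts, a replicate block and leaving out each library. The ATAC-seq and the earlier batch were not analysed here.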

Additional observations from a re-analysis of the deposited data

How the results depend on the processing

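The main limits are the 3 libraries per group, 1 tamoxifen library (tamoxifen 4) that stands between the groups, and an adjusted p that moves with how many other genes are called. Over 14 alternatives, Usp18 and Isg15 stayed higher in tamoxifen, with adjusted p from 0.00199 to 0.295 and from 0.0350 to 0.475, and so did Ube2l6. The DESeq2 Wald test put Usp18 (1.0) and Isg15 (0.98) past the threshold, and edgeR without a low-count filter did so for Usp18 (0.99). With each library left out in turn, the log2 fold change was 0.73 to 1.18 for Usp18, 0.62 to 1.28 for Isg15, 0.062 to 0.41 for Ube2l6, -0.16 to 0.18 for Uba7 and -0.082 to 0.26 for Herc6, and calls of members appeared only without tamoxifen 4.

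The number of genes higher and lower was 203 and 31, against 713 and 231 with DESeq2, 48 and 6 with limma-voom, 120 and 17 at a mean of at least 50 counts and 372 and 61 without a filter. It ranged from 8 to 2278 higher and from 0 to 2024 lower when 1 library was left out, with both maxima without tamoxifen 4 and at most 16 higher and 0 lower without any other. Of the genes in the pathway lists 3 were called, against 12 with DESeq2, 0 with limma-voom, 0 at a mean of at least 50 counts, 7 without a filter and 0 to 26 with 1 library left out.

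Oil and tamoxifen share the numbers 1 and 4 only, and the deviations of those libraries from their group means correlated at -0.13 and 0.06. With only 2 such values, taken from means of 3 libraries, this cannot decide whether the numbers pair the samples. The replicate block gave -0.16 for Herc6 and -0.15 for Uba7, both reversed, 7 called genes in the lists, and 215 genes higher and 26 lower, with 1 residual degree of freedom among samples. By construction its fold changes rest on libraries 1 and 4 and not on tamoxifen 2. Values of other named genes, and of the ratios of Usp18 to the enzymes, were also followed under the alternatives. Of these values, 226 stayed the same, 21 moved past the threshold, 20 fell short of it and 0 reversed. For a gene, the same means that direction and side of the threshold were kept. For a ratio, it means that the log2 difference stayed within the pooled SD of the groups from its value with all libraries.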
